A study of Mus with 5 samples.

Results

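NF-κB pathway genes were examined in ChIP-seq peak lists for the retinoic acid receptor RARα and the transcription factor BATF in mouse CD8 T cells. The genes were the 5 NF-κB subunit genes *Nfkb1*, *Nfkb2*, *Rel*, *Rela* and *Relb*, and 5 genes for regulators of the pathway, *Nfkbia*, *Nfkbid*, *Nfkbiz*, *Tnfaip3* and *Traf1*. A peak belonged to a gene when the authors' annotation named the gene beside it. This gave 77 peaks of 27480 in 4 lists, with 3 of 1172 in the RARα control list, 1 of 597 in the RARα list with retinoic acid (RA), 44 of 15812 in the BATF control list and 29 of 9899 in the BATF list with RA. The cells were naive CD8 T cells from spleens of wild-type mice. They were stimulated through CD3 and CD28 in the presence of IL-2 for 24 h and then left in IL-2 (100 U/ml) alone for another 24 h. RA was added at 50 nM for the final 1 h in the RA condition and omitted in the control condition. Antibodies to RARα or BATF, or normal rabbit IgG, were used for precipitation. The treatment field of the labels names a different interleukin from library to library, whereas the culture protocol names IL-2, and the labels do not say whether the cells for the IgG library received RA. Each list had been called on 2 pooled ChIP alignment files against the same IgG file, so there is 1 value per condition and differences between conditions have no replicate check. Pool sizes were 22655611 (control) and 22475060 (RA) fragments for RARα. For BATF they were 23110180 and 16424269, so the BATF RA pool had 71.1% of the fragments of its control. Whether the 2 files of a pool are separate cultures or repeat runs is not stated.

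NF-κB factors are dimers of Rel-family proteins. In resting cells inhibitor proteins of the IκB family hold them in the cytoplasm. Signals from the T cell receptor, from co-stimulation and from TNF-family receptors lead to destruction of the inhibitor or to processing of the precursor subunits, and the dimers then enter the nucleus. Several genes that limit the pathway are themselves switched on by NF-κB, which closes a feedback loop. BATF is a factor of the AP-1 family that binds DNA in activated T cells, and RARα is a nuclear receptor whose ligand is RA.

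BATF peaks were annotated to all 10 genes in both conditions, whereas RARα peaks were annotated to *Nfkb1* and *Traf1*. A further RARα control peak lay 3491 bp from *Nfkbid* but was annotated to *Hcst*. In the BATF control list, 49.1% of all protein-coding genes were named at 1 or more peaks, and in the BATF RA list 38.7%. A peak in both BATF lists was found for 37.7%. The protein-coding genes were not limited to those expressed in CD8 T cells. For RARα the shares were 7.33% in control and 3.21% with RA, against 2 and 1 of the 10 genes. *Nfkb1* and *Traf1* were named in both control lists, RARα and BATF, as were 6.06% of protein-coding genes. All 10 genes had a BATF peak classed as promoter in both lists, beside 38.3% of protein-coding genes in control, 28.2% with RA and 27.6% in both. Each of the 10 also had a BATF peak within 10 kb of the gene in both lists. This was the case for 48.5% of protein-coding genes in control and 38.6% with RA. The number of BATF control peaks ran from 1 at *Nfkb2* and *Relb* to 9 at *Nfkb1* and 12 at *Traf1*. The median over genes named in that list was 1 peak, and 1.74% of them had 9 or more. *Nfkbiz* was the only one of the 10 genes with more BATF peaks in the RA list (5) than in the control list (4), because 1 wide control peak corresponded to 2 narrower RA peaks.

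**Figure D1:**
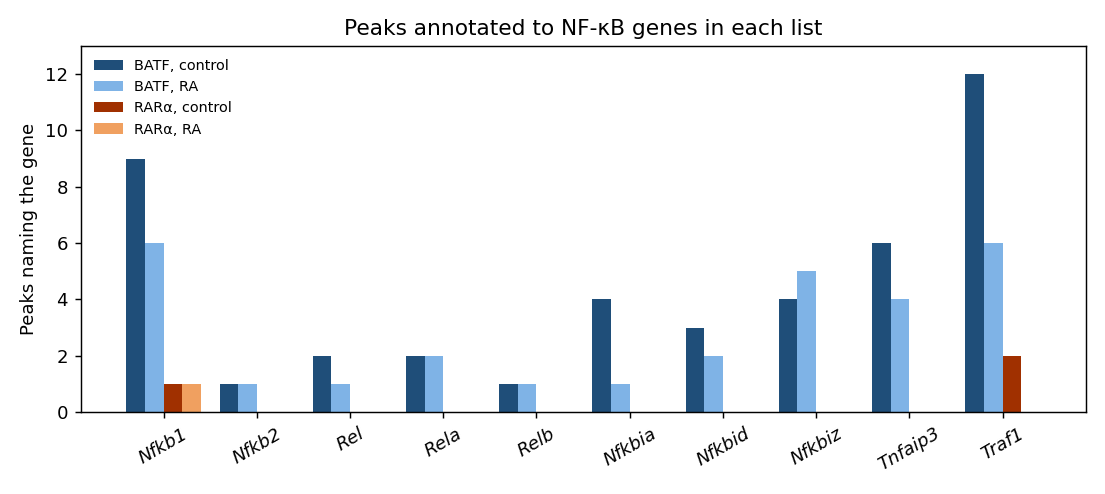
Bars give the number of peaks whose annotation named each gene (x axis) in the 4 lists, with 1 list per condition and no error bars. BATF bars stand at all 10 genes in both conditions, and RARα bars at *Nfkb1* (1 in each condition) and *Traf1* (2 in control, 0 with RA).

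*Nfkb1* encodes the precursor p105 and the subunit p50. It held the strongest BATF site of the group and the only RARα site that was called in both conditions. The BATF control peak lay on chromosome 3 of mm10 from 135665080 to 135666327, in intron 3 of 24, with its summit 26095 bp from the end of the gene where the promoter-classed peaks lie. At the summit 390 fragments were counted, and the fold enrichment over IgG was 42.9, which ranked 18 by fold and 4 by p-value among the 15812 peaks of the list. With RA the peak lay from 135665246 to 135666534 and had 373 fragments and a fold of 61.9. This was rank 2 by fold and rank 1 by p-value of the 9899 peaks. Relative to pool size, the summit carried 16.9 fragments per 1000000 pool fragments (FPM) in control and 22.7 with RA. The BATF fold was thus 1.44 times the control value, although the RA pool was the shallower. The FPM ratio was 1.35, with an exact 95% interval of 1.16 to 1.55 that covers counting error only.

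RARα was detected at the same place in intron 3. Its control peak, from 135665530 to 135666280, had 51 fragments and a fold enrichment of 5.82, and its summit lay 15 bp from that of BATF. With RA the RARα peak (135665765 to 135666226) was enriched 3.38-fold with 29 fragments. The RARα fold with RA was 0.581 times the control value, so RARα enrichment was lower and BATF enrichment higher at this site in the RA condition. In the whole RARα control list 120 peaks had a RARα RA peak within 5 kb. Their ratios were not computed, so whether 0.581 is unusual among RARα pairs is not known. In FPM the RARα values were 2.25 and 1.29, a ratio of 0.573 with a counting interval of 0.350 to 0.922. Both intervals exclude 1, but neither holds the spread between cultures, which 1 list per condition cannot give. Among the RARα peaks the site ranked 73 by fold of 1172 in control and 103 of 597 with RA. The IgG level recovered at the site was 2.49 to 2.80 times its background over the 4 lists, and its part in the values was not tested.

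A higher BATF fold with RA was uncommon among strong BATF sites. Of 259 BATF pairs with a control fold of at least 20, a limit set after the values were seen, 40 (15.4%) had a higher fold with RA and the median ratio of RA to control was 0.838. In FPM 64 of them (24.7%) were higher, with a median of 0.894, and with the pileup divided by the IgG level 77 (29.7%), with a median of 0.899. A limit on the control value alone favours pairs with a lower RA value. No other pair of the 259 reached the ratio of the *Nfkb1* site on any of the 3 scales. With a limit of 10, 6 of 1688 pairs had a ratio at least as high, the *Nfkb1* site included, and 16 and 10 on the other scales.

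**Figure D2:**
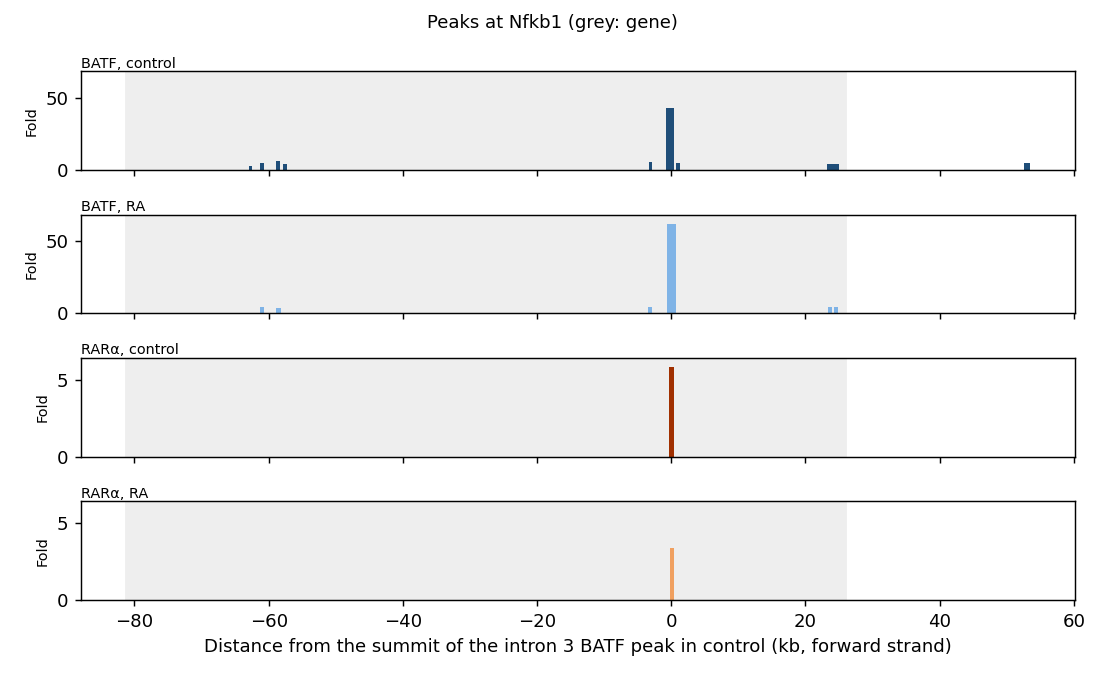
Fold enrichment (y axis, separate scales for BATF and RARα) of each peak named for *Nfkb1* is drawn against the distance in kb from the summit of the intron 3 BATF peak (x axis), with grey marking the gene and peaks narrower than 0.5 kb drawn at that width. The peak at 0 kb is present in all 4 lists, with BATF at 42.9 in control and 61.9 with RA and RARα at 5.82 and 3.38.

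The other BATF peaks of *Nfkb1* were much weaker, with control folds from 2.88 to 6.01. A group of 4 control peaks spanned the stretch from exon 13 to intron 16, between 135602938 and 135608572, and corresponded to 2 RA peaks with folds of 4.15 and 3.91. An exon-classed peak from 135662548 to 135663015 had 5.79 in control and 4.64 with RA. At the promoter the control peak from 135689030 to 135690927 had a fold of 4.28, and 2 RA peaks inside it had 4.30 and 4.18. A small peak of 17 fragments, 268 bp long, lay beside the strong site and was not called separately with RA. An intergenic peak (135718507 to 135719334) at 26538 bp from *Nfkb1*, where BATF enrichment was 4.86-fold, had no RA peak within 5 kb.

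The other subunit genes had few BATF peaks, and each had 1 at its promoter in both lists. *Nfkb2*, which encodes the precursor p100 and the subunit p52 of the non-canonical branch, had a single control peak on chromosome 19 from 46304240 to 46305766, where 48 fragments gave 12.1-fold enrichment. Its RA counterpart (46304934 to 46305715) had 19 fragments and was enriched 5.72-fold. At *Relb*, whose product pairs with p52, the promoter peak on chromosome 7 from 19628534 to 19629522 was enriched 9.21-fold with 35 fragments in control and 5.29-fold with 15 fragments with RA. At *Rel*, which encodes c-Rel, the promoter peak on chromosome 11 from 23769790 to 23771722 had a fold of 6.71 in control, and the RA peak had 3.20. The ratios of RA to control at these 3 promoters were 0.472, 0.574 and 0.476. In FPM the values were 2.08 and 1.16 at *Nfkb2*, 1.51 and 0.913 at *Relb*, and 1.73 and 0.974 at *Rel*, so all 3 values were lower with RA after scaling to the pool. Only at *Nfkb2* did the counting interval of this ratio (0.309 to 0.965) exclude 1. At *Rel* it ran from 0.294 to 1.03 and at *Relb* from 0.306 to 1.13, so these differences were within counting error at this depth.

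At *Rela*, which encodes p65, fold and FPM differed in direction. Its promoter peak on chromosome 19 from 5636334 to 5637933 had a fold of 4.94 in control and 5.25 with RA, a ratio of 1.06. In FPM the order was the opposite, 1.90 in control and 1.64 with RA, so no direction can be given for this site. A second peak 65035 bp from *Rela*, with a fold of 4.67 in control and 3.57 with RA, was annotated with 12 genes and lay 783 bp from *Ap5b1*. *Rel* also had a distal control peak (23846142 to 23846727), enriched 5.36-fold and separated from the gene by 75173 bp. It lay nearer to *Papolg* and had no RA peak within 5 kb.

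Among the inhibitors, *Nfkbia* encodes IκBα, the protein that holds NF-κB dimers in the cytoplasm and is resynthesised under their control. It had 4 BATF control peaks spread over a gene of 3239 bp on chromosome 12. The strongest (55488462 to 55489688), at the far end of the gene from the promoter, was enriched 7.68-fold with 29 fragments. The promoter peak (55491929 to 55492602) was enriched 6.42-fold with 32 fragments, and the remaining 2 had 4.46 and 4.45. With RA the only peak annotated to *Nfkbia* was at the promoter (55491934 to 55492296), where 17 fragments gave 3.91-fold enrichment. A second RA peak (55488863 to 55489317), enriched 5.29-fold, overlapped the strongest control peak but was annotated to *Mir1198*, so the count of 1 understates what was called at the locus. FPM values were lower with RA at both overlapping pairs, at ratios of 0.728 and 0.748, and both counting intervals included 1.

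The nuclear IκB proteins act inside the nucleus on DNA-bound NF-κB. *Nfkbiz*, which encodes IκBζ, had strong BATF peaks at a distance. One on chromosome 16 (55747129 to 55747777), at a distance of 63598 bp, had 76 fragments and 19.3-fold enrichment in control, against 44 fragments and 14.8-fold with RA. Another (55754385 to 55755006), 56369 bp away, had 73 fragments and 8.12 in control, and 59 fragments and 9.94 with RA. Inside the gene a promoter-classed peak from 55819647 to 55822568 had 10.6 in control, and the 2 RA peaks that overlapped it had 12.0 and 6.86. At the promoter of the longer transcript the values were 5.04 and 4.72. Folds at *Nfkbiz* were thus higher with RA at 2 of 4 sites, with ratios from 0.767 to 1.22, and the counting intervals of all 4 FPM ratios included 1.

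*Nfkbid* encodes IκBNS, the nuclear IκB protein that is known for a part in Foxp3 expression. A wide control peak of 4401 bp on chromosome 7, from 30419124 to 30423524, covered the promoter and the neighbouring gene *Hcst* and reached 7.04-fold with 56 fragments. In the RA list 3 peaks overlapped it. Of these, the one with the nearest midpoint (30421238 to 30422412) reached 5.80-fold with 34 fragments. In addition, 2 control peaks annotated to *Nfkbid* had no RA peak within 5 kb. They lay at 30394125 to 30395080 (3.95-fold) and 30431786 to 30432103 (6.14-fold), and were annotated with 13 and 11 genes.

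*Tnfaip3* encodes A20, a ubiquitin-editing enzyme that shuts off signalling upstream of the IκB kinase. Its strongest BATF peak was intergenic, on chromosome 10 (19067994 to 19068774) and 52584 bp away, where 96 fragments gave 21.5-fold enrichment, rank 202 of the control list. With RA the site had 49 fragments and 13.6-fold enrichment. The FPM ratio was 0.718, with a counting interval of 0.498 to 1.02. A neighbouring peak 46570 bp from the gene had 8.17 in control and 5.22 with RA. The promoter peak, from 19015027 to 19015769, had 9.38 and 8.26, and its summits in the 2 lists were 1 bp apart. A peak in intron 1 that was also classed as promoter had 4.83 and 4.38. The fold was therefore lower with RA at 4 of 4 *Tnfaip3* sites, beside 75.5% of all overlapping BATF pairs. The distal sites had ratios of 0.634 and 0.639, and the sites at the promoter 0.881 and 0.907. The counting interval of the FPM ratio included 1 at all 4. Of the 2 control peaks without an RA peak, the first (18917283 to 18917627, 3.13-fold) was nearer to *Perp*, and the second (19104785 to 19105171, 3.62-fold) lay 89375 bp from *Tnfaip3*.

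**Figure D3:**
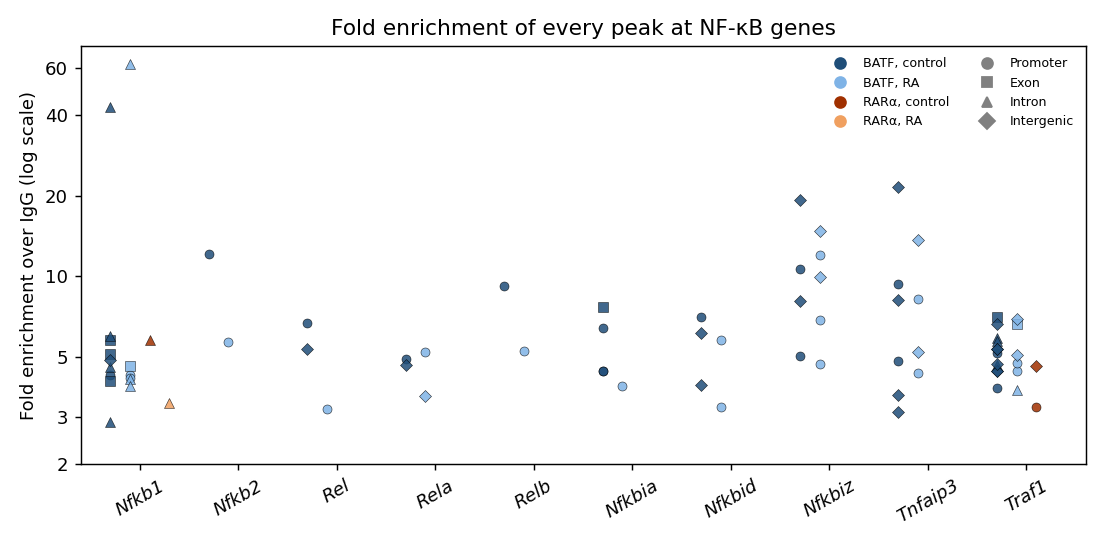
Each point is 1 peak, with its fold enrichment over IgG on a log scale (y axis) above the gene it was annotated to (x axis). Colour gives the list and shape the class of the peak. The highest points are the *Nfkb1* intron 3 peaks (42.9 and 61.9), the distal *Tnfaip3* peak (21.5 and 13.6) and the distal *Nfkbiz* peak (19.3 and 14.8).

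*Traf1* encodes an adaptor of the TNF receptor family and is itself a conventional NF-κB target. It carried the most peaks, although none of its BATF folds was above 7.07. The 12 BATF control peaks, on chromosome 2 between 34938737 and 34982585, lay inside the gene or up to 20299 bp from it, and those farthest out were nearer to *Hc*. The strongest, an exon-classed peak from 34957794 to 34958955, had 7.07 in control and 6.64 with RA. With RA 6 peaks were called, and their folds ran from 3.79 to 6.96. The peak 15282 bp from the gene, from 34977094 to 34977556, had 6.65 and 6.96. The 3 control peaks without an RA peak within 5 kb lay from 34944746 to 34945000 (fold 5.88), from 34969740 to 34969984 (4.45) and from 34970262 to 34970604 (4.45). The nearest RA peak to each of the 3 was 5591 to 6524 bp away.

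RARα had 2 control peaks at *Traf1* and none with RA. The first (34938745 to 34939129), 2621 bp outside *Traf1*, was enriched 4.64-fold with 21 fragments. The second (34963100 to 34963481), promoter-classed and 1288 bp outside, was enriched 3.25-fold with 19 fragments. Both overlapped BATF peaks of the control list and of the RA list. At the first site BATF had 5.36 in control and 5.08 with RA, and at the second 3.85 and 4.76. BATF was thus still called with RA at the places where no RARα peak was called, and the nearest RARα RA peaks were 2429033 and 2453388 bp away. In FPM BATF was lower with RA at both sites, at 1.60 and 1.28 for the first and 1.64 and 1.34 for the second, differences within counting error. The recovered IgG level at the promoter-classed site was 1.79 times its background in the RARα control list and 3.15 times in the BATF control list.

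**Figure D4:**
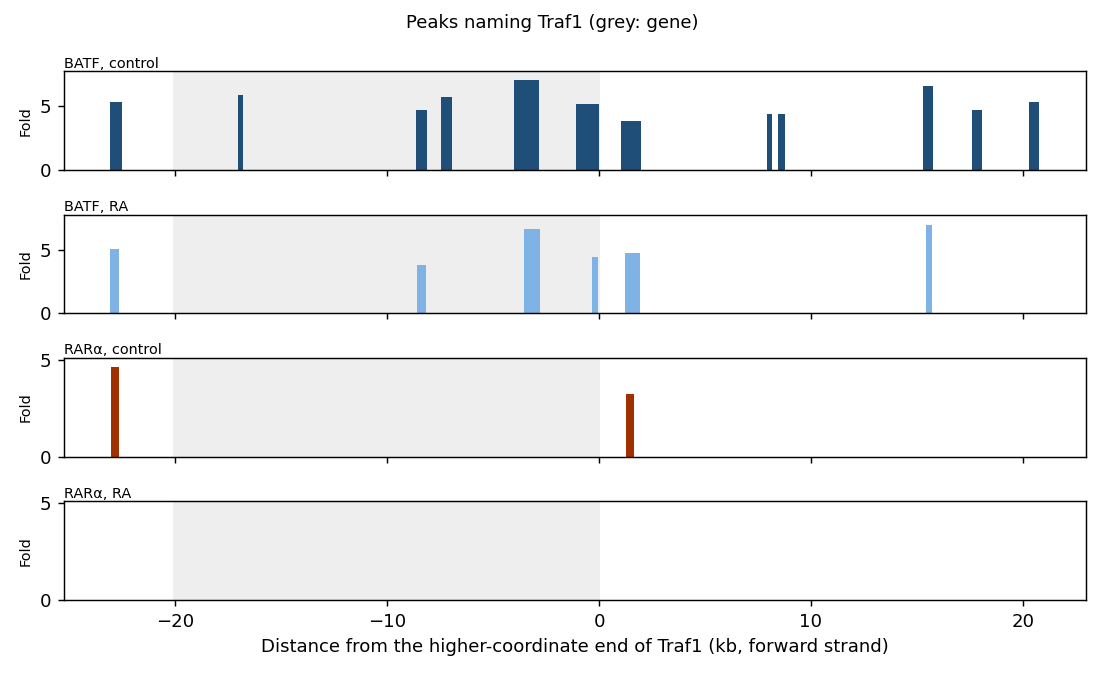
Fold enrichment (y axis) of each peak named for *Traf1* is drawn against the distance in kb from the higher-coordinate end of the gene (x axis), with grey marking the gene and peaks narrower than 0.25 kb drawn at that width. The 2 RARα control peaks (4.64 and 3.25) coincide with BATF peaks, and the RARα panel for RA is empty.

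All 3 RARα control peaks of the group overlapped a BATF control peak, a share whose Wilson 95% confidence interval runs from 43.9 to 100%, for counting error only. In the whole RARα control list 53.4% of peaks did so, and 61.9% had a BATF control peak within 5 kb. Seen from BATF, RARα was called in control at or within 5 kb of 8 of the 44 peaks (18.2%, 9.51 to 32.0), beside 7.16% over the whole BATF control list. These 8 lay at *Nfkb1*, *Traf1* and *Nfkbid*, several beside the same RARα peak. The interval takes the peaks as independent and is therefore too narrow. By overlap the share was 3 of 44 (6.82%), and the list's share by overlap was not computed. Of these 3 RARα peaks, 1 had a RARα RA peak at most 5 kb away, against 10.2% of all RARα control peaks. Of the 3, 1 was promoter-classed, beside 19.5% of that list, and the RARα RA peak was not, beside 7.71% of its list. Every one of the 3 had a fold above the list's median of 3.09. By position, the *Hcst*-annotated peak (chromosome 7, 30417932 to 30418240) was the only other RARα peak of either list within 10 kb of any of the 10 genes. It had 10 fragments and was enriched 2.69-fold, and its deposited −log10 q was 0. It did not overlap the wide BATF control peak at *Nfkbid* but lay 884 bp from it. At the remaining 7 genes no RARα peak within 10 kb passed the cutoff at this depth, which does not show that RARα was absent.

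To compare BATF between conditions over the 10 genes, each control peak was paired with the RA peak of nearest midpoint within 5 kb. Such a partner was found for 35 of 44 (79.5%, 65.5 to 88.8), beside 69.9% of all BATF control peaks, and all 29 RA peaks had a control partner, beside 96.3%. A decrease in fold with RA was seen in 23 of these 35 pairs (65.7%), beside 66.9% of all pairs. In FPM, 25 of the 35 were lower, beside 66.5% of all pairs. The median ratio of RA to control was 0.881, beside 0.868 over all 11048 pairs. Both the share and the median were thus close to those of the whole lists. A ratio of 1.5-fold or more downwards was seen in 8 pairs (22.9%, beside 19.3%). The only pair that was higher by 1.5-fold or more (7.55% of all pairs) set the small *Nfkb1* peak of 17 fragments against the strong RA peak 221 bp away, a ratio of 13.4 that compares different summits. In the 27 pairs whose peaks overlapped, 20 (74.1%) had the lower fold in the RA condition, beside 75.5% of all 8605 overlapping pairs, and the highest ratio was that of the *Nfkb1* intron 3 site. For 25 of these 27 the counting interval of the FPM ratio included 1, the exceptions being *Nfkb2* below and the *Nfkb1* intron 3 site above.

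**Figure D5:**
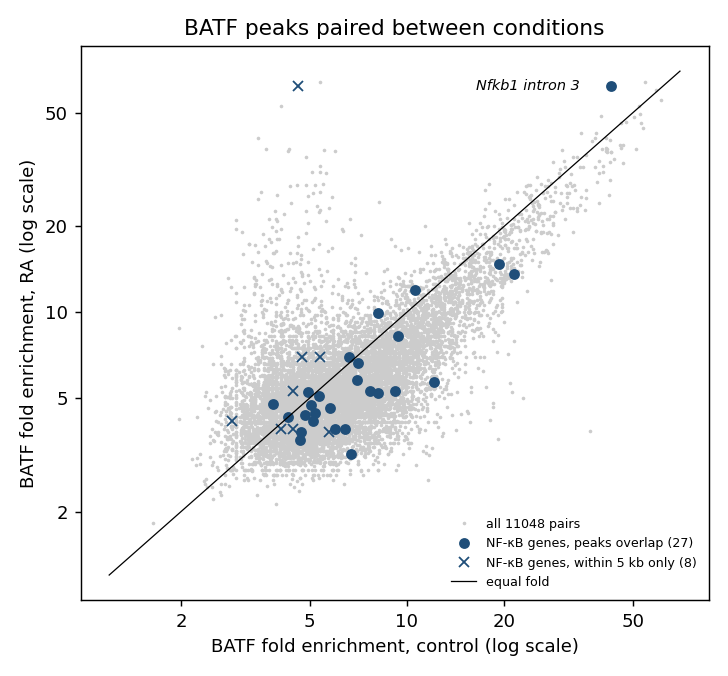
BATF fold enrichment with RA (y axis) is plotted against control (x axis), both on log scales, for pairs of peaks within 5 kb. Grey points are all 11048 pairs, filled circles the 27 overlapping pairs at NF-κB genes, crosses the 8 that lie within 5 kb without overlap, and the line marks equal fold. Most circles lie below the line (20 of 27), and the *Nfkb1* intron 3 pair lies above it.

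Under the 5 kb rule, the BATF control peaks without an RA partner were all away from promoters. Of the 9, 8 were intergenic and 1 was intronic, and the 15 promoter-classed and 5 exon-classed control peaks all had a partner. Over the whole list, a partner was found for 74.3% of promoter, 65.3% of exon, 64.5% of intron and 62.3% of intergenic control peaks. At these genes 9 of 17 intergenic control peaks had one. By overlap instead, 17 of the 44 control peaks had no RA peak. Among these were promoter-classed peaks of *Nfkbia* (55490335 to 55490708 and 55491099 to 55491458) and an exon-classed peak of *Nfkb1* (135607980 to 135608572). Their partners within 5 kb were RA peaks that overlapped another control peak, so the pattern by class depends on the rule. The 9 peaks without a partner had folds from 3.13 to 6.14 and 17 to 37 fragments. The median fold was 4.45, beside 5.73 for the 35 with a partner. Fragments and IgG level were then scaled to the depth of the RA pool, a step added after the peaks had been seen. The scaled values of 8 of the 9 still gave a p-value of 1e-05 or smaller. The same holds for 92.7% of all BATF control peaks without a partner. The exception was the *Tnfaip3* peak with a fold of 3.13. The scaling holds no counting spread, and the peaks had been selected for passing in control. Whether depth accounts for the missing RA peaks was therefore not tested.

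By class, the BATF control peaks of these genes included fewer promoter and more intergenic peaks than the list. Here 34.1% were promoter-classed, beside 58.7% of all peaks, and 38.6% were intergenic, beside 18.1%. With RA the promoter share was 55.2%, beside 64.6%, and the intergenic share 24.1%, beside 16.2%. Selection by gene name favours peaks that name several genes, and 16 of the 17 intergenic control peaks did so. Among control peaks that named a single gene, 14 of 27 (51.9%) were promoter-classed, beside 65.3% of all such peaks, and 3.70% were intergenic, beside 3.45%. With RA the promoter share of single-gene peaks was 71.4%, beside 70.9%. Fold enrichment was near the list's own level, with a median of 5.36 in control (5.40 over all peaks) and 5.08 with RA (5.29). In control 20 of the 44 peaks and with RA 11 of the 29 were above the median of their list. The top 10% of each list by fold held 5 of the peaks, at *Nfkb1*, *Tnfaip3*, *Nfkbiz* and *Nfkb2* in control and at *Nfkb1*, *Tnfaip3* and *Nfkbiz* with RA.

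A wider set of 57 genes of the pathway, from receptors to target genes, was examined in the same way. A BATF peak was annotated to 52 of the 57 in control (91.2%) and to 50 with RA (87.7%), beside 49.1% and 38.7% of protein-coding genes. These protein-coding genes were not limited to those expressed in CD8 T cells. The 5 genes without a BATF peak in either list were the kinase genes *Chuk* and *Map3k7*, the kinase-adaptor gene *Tab3*, and the targets *Il2* and *Gadd45b*. All 8 genes for TRAF and RIP adaptors, all 8 for deubiquitinases and other inhibitors and all 7 TNF receptor genes had annotated BATF peaks in both lists. None of the BATF peaks annotated to *Tnfrsf4*, *Ltbr* or *Csf2* lay within 10 kb of the gene, nor did the RA peak annotated to *Tbk1*. The highest BATF control folds were at *Malt1*, the paracaspase gene of the T cell receptor arm, with 33.6 in control and 34.9 with RA. *Il2ra*, which encodes the high-affinity IL-2 receptor chain, had 27.2 and 26.3. This peak was intergenic, 25291 bp from *Il2ra* and nearer to *Rbm17*. *Tnip3*, for an A20-binding protein, had 25.7 and 22.0, and *N4bp1* had 16.9 and 18.8. The peak annotated to *Tnfrsf1b*, for TNF receptor 2, had 23.4 and 19.6. It was intergenic, 94950 bp from *Tnfrsf1b* and nearer to *Tnfrsf8*. Over the 142 pairs of these genes the median ratio was 0.901, beside 0.868 over all BATF pairs. Of the 142, 89 (62.7%) were below 1, beside 66.9% of all pairs. Only 91 of the 173 control peaks of these genes overlapped an RA peak, so many of the pairs compare different summits.

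RARα control peaks were annotated to 12 of the 57 genes (21.1%, beside 7.33%), at 15 peaks with folds from 2.52 to 5.67. Of the 15, 11 overlapped a BATF control peak, as did 53.4% of the whole RARα control list. These are counts at the authors' p-value cutoff, and 6 of the 15 peaks, at 7 of the 12 genes, had a q-value of at most 0.05 (*Prkcq*, *Bcl3*, *Il2ra*, *Lta*, *Csf2* and the peak shared by *Tnfrsf4* and *Tnfrsf18*). The highest was at *Prkcq*, which encodes the kinase PKCθ that links the T cell receptor to NF-κB, in an intron on chromosome 2 from 11203055 to 11204408, and *Prkcq* had 2 further peaks with 3.09 and 2.79. *Bcl3*, for a nuclear IκB protein, had 4.45 at its promoter and 2.59 in an intron. *Il2ra* had 4.51, at 22504 bp from the gene, and *Lta*, for lymphotoxin α, had 3.83 at its promoter. *Tnfrsf4* and *Tnfrsf18* shared 1 peak with a fold of 4.36, which was annotated with 12 genes and lay at least 38658 bp from both. The folds of the others were 3.28 and 2.58 at *Tnip3*, 2.73 at *Cd69*, 2.59 at *Tradd*, 2.59 for *Tnfrsf1b* and 2.52 at *Myc*. The *Tnfrsf1b* peak was 95210 bp from that gene, within the strongest BATF peak annotated to *Tnfrsf1b*. With RA the only one of the 57 genes with a RARα peak was *Csf2* (1.75%, beside 3.21%), which encodes GM-CSF. This intergenic peak, nearer to *P4ha2* and 83991 bp away from *Csf2*, had 26 fragments and a fold of 3.40 in control and 40 fragments and 5.19 with RA. No BATF peak of either list overlapped it, and its direction was opposite to that of RARα at *Nfkb1*.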

How the data were processed

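Per the file headers and the submitters' processing notes, paired-end reads were aligned to mm10 with Bowtie2 and deduplicated, and the authors called peaks with MACS 2.2.7.1 at a p-value of 0.001 (RARα) or 1e-05 (BATF). HOMER is named in the processing notes. The deposited pileup is a signal, the fragments at the summit, which in the BATF control list had been scaled by 0.9875. The fold enrichment deposited by the authors is a ratio of pileup plus 1 to the local IgG level plus 1, and the p-value and q-value are deposited on the −log10 scale. The IgG level was recovered from pileup and fold and divided by the lowest level in the list. Genes named in the annotation column were used to select peaks, and their positions came from a RefSeq table for GRCm38.p6, which gives no strand. Distances run from the peak to the nearest gene end. The 10 genes, the 57 further genes and the rules were chosen with earlier results of these data known. The rule named every RARα peak, the strongest BATF peak of each gene, BATF control peaks without an RA peak and, of the further genes, those with a RARα peak and the 5 of highest BATF fold. Since there is 1 list per condition, no test was run. Wilson intervals of shares and exact binomial intervals of fragment ratios, both of 95%, cover counting error only, and the latter were added after the data were seen. Pairing and overlap were tested on simulated peaks first. Motif content was not analysed here. Analyses ran in Python 3.11.15 with pandas 2.3.3, numpy 2.4.6 and scipy 1.17.1, and plots were drawn with matplotlib 3.10.9.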

Additional observations from a re-analysis of the deposited data

Results flagged for a closer look

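The intron 3 site of *Nfkb1* had a BATF fold enrichment with RA of 1.44 times the control value and a RARα fold of 0.581 times the control value. The factors moved in opposite directions at 1 place under the same contrast. The difference between them was not tested, since there is 1 peak list per factor and condition. The RARα ratio has no value over all RARα pairs beside it, so the lower RARα fold cannot be called particular to this site.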

How the results depend on the processing

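No paired analysis was possible because each factor and condition has a single list from merged alignments. Of 54 values recomputed under an alternative, 45 stayed within 1.5 times the reported count or ratio, or within the interval of the reported share. The other 9 moved. Direction applies only to the BATF median ratio and the *Nfkb1* site ratios, and none of these reversed. The p-value limit among the alternatives equalled the calling cutoff of the BATF lists, so it could not change their counts. The q-value limit of 0.05 could not either, since the lowest −log10 q of these BATF peaks was 2.75. The RARα shares rest on 3 peaks, with intervals of 6.15 to 79.2% and 43.9 to 100%, which few alternatives could leave. The 45 therefore include values that could hardly have moved. The *Rela* promoter, where fold and FPM differed in direction, was not among the recomputed values. Restricting peaks to a fold enrichment of at least 5 left 1 RARα control peak, 0 RARα RA peaks, 26 BATF control peaks and 15 BATF RA peaks, and the share of RARα control peaks with an RA peak then fell to 0%. Requiring 1 bp of overlap lowered the share of BATF control peaks with an RA peak to 61.4%. With peaks annotated to a single gene, 27 BATF control peaks were left. Of the wider set of genes, a q-value of at most 0.05 left 6 of 15 RARα control peaks and 7 of 12 genes, an alternative chosen after the data were seen. Stricter limits leave fewer peaks by construction, and the overlap rule matches fewer of the same 44 peaks. One-to-one pairs and the *Nfkb1* ratios on other scales were chosen after the data were seen. On the scale without the added constant the *Nfkb1* site had 1.54 (BATF) and 0.573 (RARα), and with fragments scaled to pool size it had 1.35 and 0.573. Peaks below the cutoff are not in the lists, so the depth of the BATF RA pool limits what its shorter list can show.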
